A study of Homo sapiens with 8 samples.

Results

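The genes described here are 9 transcripts connected with the guide strands of the miR-30 family: NT5E, IDH1, CEND1, SOX5, GNAI2, PPP3CA, PPP3CB, BECN1 and RUNX2. They were chosen by gene name from the 43317 gene names of a 2-colour Agilent expression array, and 14 of the 58201 probes carry these names. NT5E, IDH1, CEND1 and SOX5 were chosen by their log2 ratios as the lowest genes on the arrays of the miR-30c or miR-30a guide strand, so their values on those arrays are given as a description and support nothing. The other 5, GNAI2, PPP3CA, PPP3CB, BECN1 and RUNX2, are reported miR-30 targets. They were named with earlier results of these arrays known.

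The series holds 8 arrays, each of which set total RNA of cells transfected with 1 mature miRNA (Cy5) against mock cells (Cy3). HCT116, a human colorectal cancer line, received a strand of miR-139 (the 5p or the 3p) or of miR-143 (the 5p or the 3p). PANC-1, a human pancreatic cancer line, received 1 of the strands hsa-miR-30c-5p (called the miR-30c guide below), hsa-miR-30a-5p (the miR-30a guide), hsa-miR-30c-2-3p (the miR-30c passenger) and hsa-miR-30a-3p (the miR-30a passenger). Transfection was with RNAiMAX, and the labels give the mock channel as no transfection, so the lipid reagent and the miRNA cannot be told apart by label. There is 1 array for each miRNA, so no ratio has a replicate, no p-value is given, and each value describes these hybridisations. All 8 arrays lay on 1 slide and were scanned together, with HCT116 in column 1 and PANC-1 in column 2, so cell line and slide position cannot be told apart. Each array had 60901 gene spots, of which 44.1% to 45.3% were well above background in Cy3 and 45.8% to 51.4% in Cy5. The spread among the 10 spots of probes printed repeatedly had a median SD of 0.0393 to 0.0647 on the log2 scale. That spread is within an array and holds no variation between cultures.

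A miRNA precursor is a hairpin whose stem gives a duplex. One strand, the guide, usually enters an Argonaute protein, while the passenger strand is usually discarded, although both can act. The loaded strand pairs with transcripts mainly through its seed, the bases near its 5′ end, and the bound transcripts are destabilised or translated less. The miR-30 guide strands share a seed and are known for restraining epithelial to mesenchymal change, calcineurin signalling, autophagy and osteoblast differentiation.

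The mature strands transfected into PANC-1 are shown first because the comparison of guide with passenger rests on them. Capitals mark the seed, bases 2 to 8. All sequences are RefSeq's, from GRCh38.p14.

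hsa-miR-30c-5p (guide): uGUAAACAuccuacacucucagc

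hsa-miR-30a-5p (guide): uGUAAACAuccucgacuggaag

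hsa-miR-30c-2-3p (passenger): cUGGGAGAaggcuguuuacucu

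hsa-miR-30a-3p (passenger): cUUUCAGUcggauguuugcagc

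Both guide strands carried the seed GUAAACA, and neither passenger seed matched it or the other. The hairpins show how the strands lie in their precursors, with both mature strands in capitals. Both loci are on the minus strand of chromosome 6, MIR30A at chr6:71403551-71403621 and MIR30C2 at chr6:71376960-71377031 in GRCh38.p14.

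MIR30A: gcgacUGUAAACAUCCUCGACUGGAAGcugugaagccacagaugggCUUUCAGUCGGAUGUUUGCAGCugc

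MIR30C2: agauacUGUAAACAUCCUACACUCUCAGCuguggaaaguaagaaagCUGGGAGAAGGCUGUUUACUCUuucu

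The strands transfected into HCT116 carried other seeds.

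hsa-miR-139-5p: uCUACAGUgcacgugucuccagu

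hsa-miR-139-3p: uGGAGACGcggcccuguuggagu

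hsa-miR-143-5p: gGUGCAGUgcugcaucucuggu

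hsa-miR-143-3p: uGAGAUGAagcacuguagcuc

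A DNA heptamer that pairs with miR-30 guide bases 2 to 8 reads TGTTTAC, and one that pairs with bases 2 to 7 followed by A reads GTTTACA. Neither was in the 60 bases of any of the 14 probes, read as the array gives them and on that strand alone, and 0.768% of all probes held at least 1 of them. This says only that those letters were not in the probe windows, since the rest of each transcript was not searched here.

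The values below are log2 ratios of Cy5 over Cy3 after background correction and loess normalisation within the array, so a negative value means less signal in the transfected cells. A gene is given by its probe of highest mean signal, and is called detected where at least 1 channel was well above background. A change is called where the log2 ratio was at least 1 from 0, which is 2-fold, with no test behind the call.

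IDH1 makes the cytosolic isocitrate dehydrogenase that yields NADPH from isocitrate. Its probe lies at chr2:209101326-209101385 (hg19, minus strand) and was well above background in both channels of all 8 arrays. In PANC-1 the log2 ratio was -2.27 with the miR-30c guide and -2.03 with the miR-30a guide, which left 20.7% and 24.5% of the mock signal. With the passenger strands it was -0.55 for the miR-30c passenger and 0.90 for the miR-30a passenger. The guide values thus lay below both passenger values, and the passenger values lay on opposite sides of 0. In HCT116 the log2 ratios were 0.08 and 0.28 with the 5p and 3p strands of miR-139 and -0.04 and -0.36 with those of miR-143. The HCT116 values also lay above those of the guide arrays. IDH1 was chosen for its low values on the guide arrays, so nothing is read from these separations. Mock levels differed little between arrays of one precursor, at 9.54 and 9.59 on the miR-30c arrays and 9.34 and 9.35 on the miR-30a arrays (log2 signal).

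CEND1, a membrane protein that promotes cell cycle exit and differentiation of neurons, had the lowest log2 ratio of all detected gene symbols on both guide arrays, of 14044 symbols with the miR-30c guide and 14144 with the miR-30a guide. Its probe (chr11:787111-787170, hg19, minus strand) gave -2.46 and -2.17. The miR-30c passenger gave -2.48, so both strands of the miR-30c precursor had almost the same value. The miR-30a passenger gave 0.50. CEND1 was therefore low on 3 of the 4 PANC-1 arrays and did not divide guide from passenger. In HCT116 its log2 ratios lay between -0.14 and 0.10, at mock levels of 6.25 to 6.39, against 9.64 to 10.02 in PANC-1.

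NT5E, also called CD73, is the ectoenzyme that makes adenosine from AMP at the cell surface. Its brighter probe (chr6:86204891-86204950, hg19, plus strand) gave log2 ratios of -1.66 with the miR-30c guide and -2.06 with the miR-30a guide, and 0.55 and -0.97 with the miR-30c passenger and the miR-30a passenger. The other probe gave 0.09 and -0.20 on the guide arrays and 0.84 and -0.78 on the passenger arrays. The 2 probes therefore lay close on the passenger arrays and differed by over 1 log2 unit on both guide arrays, although both were well above background in both channels of all 8 arrays. The second probe is placed at chr6:86176992-86181005, a span of 4014 bases for a 60-base probe, so it crosses a splice junction upstream of the brighter probe. In HCT116 the brighter probe gave -0.01, -0.60, -1.12 and -0.25, and miR-143-5p was the only HCT116 array past 2-fold. The other probe read -0.14 on that array.

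SOX5 makes a transcription factor of the SRY-related HMG-box family that acts in cartilage and neurons. Its place among the lowest genes rests on 1 mock spot. The probe at chr12:24521499-24521558 (hg19, minus strand) had a raw mock signal of 142.5 on the miR-30c guide array and 21.2 to 25.2 on the other 7 arrays. Its mock level was 7.57 (log2) on the miR-30c guide array and 5.80, 5.82 and 5.87 on the other PANC-1 arrays, while the transfected channel read 5.79, 5.87, 5.85 and 5.77. The log2 ratio was -1.78 with the miR-30c guide and 0.07, 0.03 and -0.10 with the miR-30c passenger, the miR-30a guide and the miR-30a passenger. The transfected channel thus read alike on all 4 PANC-1 arrays, and the mock channel stood apart on 1 of them. The other SOX5 probes, at chr12:24430150-24430209 and chr12:23685294-23685353, were not well above background in either channel of any array. Where 1 channel of the brightest probe passed background, on both miR-143 arrays, the miR-30c passenger array and the miR-30a guide array, the transfected channel was at least 1.05-fold, 1.03-fold, 1.02-fold and 1.01-fold higher. Such a fold is the bright channel against the lowest signal well above background on that array, or against the dim channel itself where that was higher. On the HCT116 arrays the SOX5 log2 ratio lay between -0.01 and 0.08.

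**Figure D1:**
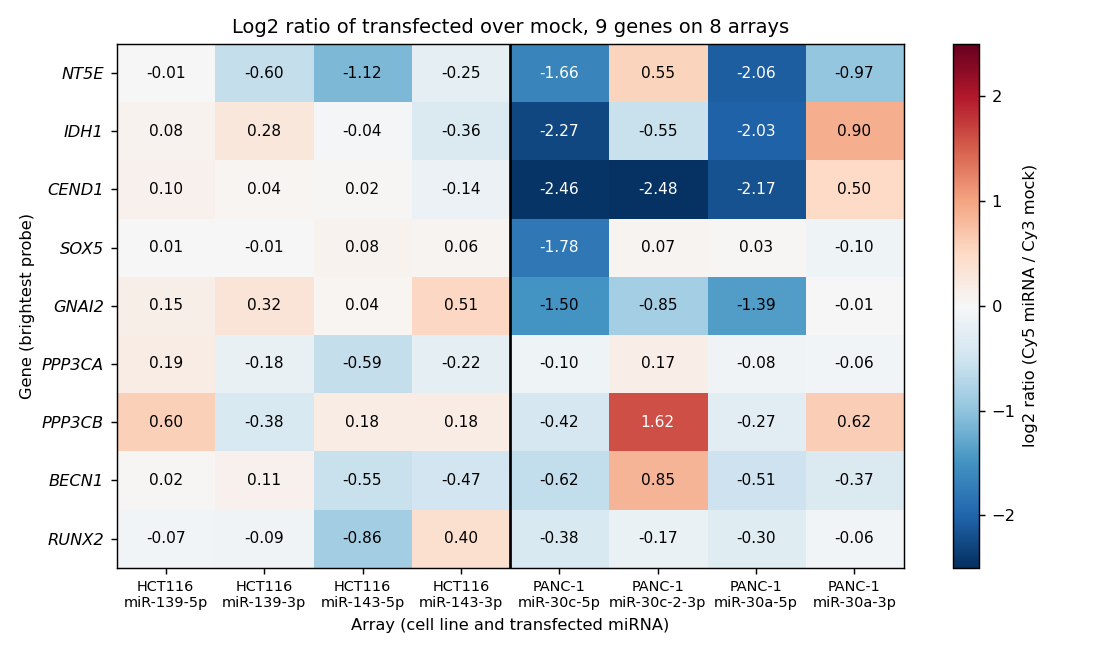
Log2 ratio of transfected (Cy5) over mock (Cy3) signal for the brightest probe of each of the 9 genes (vertical axis) on the 8 arrays (horizontal axis), with colour from blue (lower with the miRNA) to red (higher). IDH1, CEND1, NT5E and GNAI2 were below -1 on both guide arrays, and CEND1 also read -2.48 with the miR-30c passenger.

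The selection had a boundary. On the miR-30c guide array the log2 ratios just inside it were -2.46, -2.27 and -1.78 for CEND1, IDH1 and SOX5, and the next symbols, PRR34-AS1 and TWF1, read -1.72 each. NT5E was in place 7 there, at -1.66. On the miR-30a guide array CEND1, NT5E and IDH1 took places 1 to 3, and STEAP1 followed at -1.79 and SLC35F3 at -1.78.

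Among the reported targets, GNAI2 encodes the alpha subunit of an inhibitory heterotrimeric G protein that lowers adenylyl cyclase activity. Its probe (chr3:50296258-50296317, hg19, plus strand) was bright, with mock levels of 13.05 to 13.17 in PANC-1 and 12.37 to 12.54 in HCT116. The log2 ratio was -1.50 with the miR-30c guide and -1.39 with the miR-30a guide, or 35.4% and 38.1% of mock. It was -0.85 with the miR-30c passenger and -0.01 with the miR-30a passenger. GNAI2 was in place 16 of 14044 symbols on the first guide array and in place 15 of 14144 on the second. In HCT116 its log2 ratios were 0.15, 0.32, 0.04 and 0.51, so no HCT116 array was below 0. With median centring in place of loess, GNAI2 read -0.88 on both guide arrays. The median of all genes was then 0.21 on the miR-30c guide array and 0.15 on the miR-30a guide array. From that median GNAI2 lay at -1.10 and -1.03.

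PPP3CA and PPP3CB encode the catalytic subunits of calcineurin, the calcium-dependent phosphatase that activates NFAT. PPP3CA (chr4:101945294-101945353, hg19, minus strand) read -0.10 and -0.08 on the guide arrays and 0.17 and -0.06 on the passenger arrays, all within 0.2 of mock. Its largest difference from mock was with miR-143-5p in HCT116, at -0.59. With median centring PPP3CA read 0.21 on the miR-30c guide array and 0.16 on the miR-30a guide array.

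PPP3CB gave -0.42 and -0.27 on the guide arrays with its brighter probe (chr10:75196756-75196815, hg19, minus strand), and 1.62 and 0.62 on the miR-30c and miR-30a passenger arrays. With loess it was the only 1 of the 9 genes past 2-fold in the upward direction on any of the 8 arrays, at 307.6% of mock with the miR-30c passenger. With median centring IDH1 (1.61), CEND1 (1.22) and PPP3CB (1.23) were also past it with the miR-30a passenger, and BECN1 (1.02) with the miR-30c passenger. As the scanner software gave it, the dim SOX5 was past it with the miR-30c passenger (1.32) and with miR-143-3p (1.29). The other probe (chr10:75204358-75204417) gave 0.12 and -0.22 on the guide arrays and 0.04 and 0.01 on the passenger arrays. The value past 2-fold was thus seen with 1 of its 2 probes. In HCT116 the brighter probe read 0.60, -0.38, 0.18 and 0.18, and the other read 0.27, 0.08, -0.26 and -0.16.

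BECN1 encodes Beclin 1, a part of the lipid kinase complex that starts autophagosome formation. Its probe lies at chr17:40962820-40962879 (hg19, minus strand). The log2 ratio was -0.62 with the miR-30c guide and -0.51 with the miR-30a guide, or 65.3% and 70.2% of mock. It was 0.85 with the miR-30c passenger and -0.37 with the miR-30a passenger. No BECN1 value passed 2-fold, and the miR-30a guide and passenger values lay close together. In HCT116 BECN1 read 0.02 and 0.11 with the miR-139 strands and -0.55 and -0.47 with the miR-143 strands, so the miR-143 values lay on either side of that with the miR-30a guide.

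RUNX2, the transcription factor that directs osteoblast differentiation, was dim, with PANC-1 mock levels of 6.45 to 6.50. Its brighter probe (chr6:45518216-45518275, hg19, plus strand) gave -0.38 and -0.30 on the guide arrays and -0.17 and -0.06 on the passenger arrays. As given by the scanner software, which adds no offset to dim signals, the guide values were -1.21 and -0.87. In HCT116 the log2 ratio was -0.07 with miR-139-5p, and the miR-143 strands gave -0.86 (5p) and 0.40 (3p). On the miR-139-3p array the transfected channel was not well above background, and mock was at least 1.06-fold higher. The other probe (chr6:45459689-45459748) was mostly not well above background and read between -0.10 and 0.10 on the 8 arrays.

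**Figure D2:**
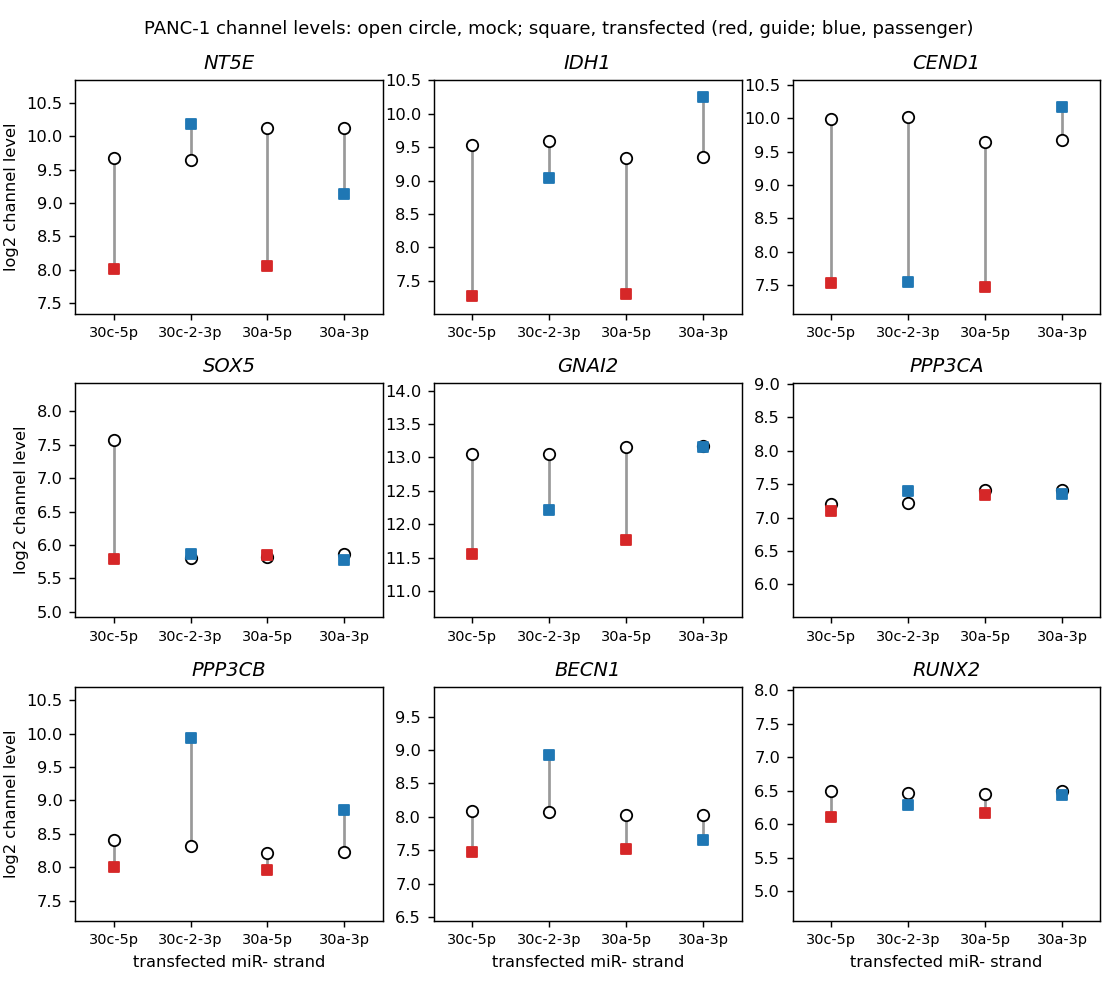
Log2 signal of mock (open circles, Cy3) and transfected cells (squares, Cy5; red for guide, blue for passenger strands) for the brightest probe of each gene on the 4 PANC-1 arrays, with a line whose length is the log2 ratio. Vertical axes span the same number of log2 units at different levels, and the SOX5 mock circle of the miR-30c guide array, at 7.57, stands above its neighbours.

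**Figure D3:**
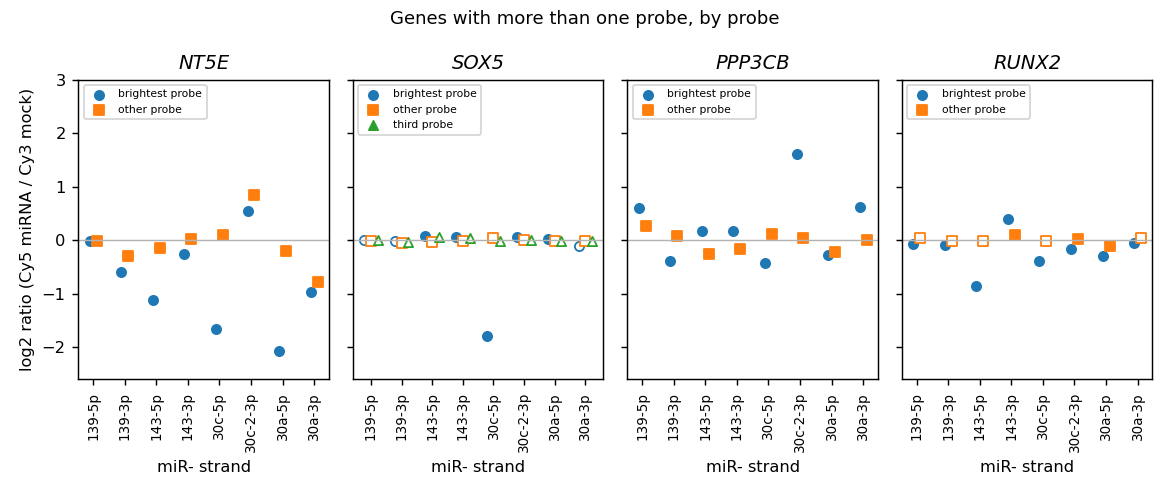
Log2 ratio by array for the 4 genes with more than 1 probe, where circles are the brightest probe and open symbols were not well above background in either channel. The NT5E probes part on both guide arrays, at -1.66 against 0.09 and at -2.06 against -0.20.

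Counted over the set, 5 of 9 detected members were at least 2-fold lower with the miR-30c guide (CEND1, IDH1, SOX5, NT5E and GNAI2) and 4 of 9 with the miR-30a guide (CEND1, NT5E, IDH1 and GNAI2). Over all genes detected, 0.445% of 20887 and 0.263% of 20946 were that low. Nothing is read from these counts, because 4 members were selected on these arrays. In the other direction 0 members passed on the guide arrays, where 0.747% and 0.306% of all genes were at least 2-fold higher. With a threshold of 1.5-fold the counts were 6 with the miR-30c guide and 4 with the miR-30a guide, against 2.52% and 1.70% of all genes.

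For the 5 reported targets, chosen by name, the median log2 ratio was -0.42 with the miR-30c guide and -0.30 with the miR-30a guide, against 0.01 over all genes on each array. These medians were -0.23 and -0.19 with median centring, -0.68 and -0.49 with no background correction, -0.82 and -0.66 with an offset of 1, and -0.85 and -0.72 as the scanner software gave them. On the passenger arrays the same 5 had medians of 0.17 (miR-30c) and -0.06 (miR-30a), with 2 and 4 below 0. In HCT116 their medians were 0.15 and -0.09 for the miR-139 strands and -0.55 and 0.18 for the miR-143 strands (5p, then 3p). The lowest of the 8 arrays was thus that of miR-143-5p, not a miR-30 guide array, but this depended on the processing. The miR-143-5p median, the BECN1 value, was -0.34 with median centring, also below both guide medians. It was -0.60 with no background correction, -0.59 with an offset of 1 and -0.60 as the scanner software gave it. The miR-30c guide median was lower than each of these last values. The miR-30a guide median was lower with an offset of 1 and as the scanner software gave it. All 5 were below 0 on both guide arrays with loess, as were 46.2% and 46.0% of all genes. PPP3CA lay above 0 on both and PPP3CB on the miR-30a guide array with median centring. GNAI2 was the only 1 of the 5 past 2-fold. BECN1 was in place 384, PPP3CB in 930, RUNX2 in 1107 and PPP3CA in 4036 of 14044 symbols with the miR-30c guide, counted from the lowest ratio.

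The rule that chose the lowest genes used no value of the passenger and HCT116 arrays, although results of all arrays were known when the members were named. With the miR-30c passenger, 1 of 9 detected members was at least 2-fold lower (CEND1) where 4.14% of all genes were, and 1 was at least 2-fold higher (PPP3CB) where 1.71% of all genes were. With the miR-30a passenger, 0 of 8 were at least 2-fold lower where 1.10% of all genes were. At 1.5-fold, 2 members were lower with the miR-30c passenger and 1 with the miR-30a passenger, and 10.2% and 3.76% of all genes were. The median of the members was 0.07 with the miR-30c passenger and -0.04 with the miR-30a passenger. With median centring the latter was 0.65, where the median of all genes was 0.30. On the HCT116 arrays the counts at least 2-fold lower were 0 of 8 for each miR-139 strand, 1 of 9 for miR-143-5p (NT5E) and 0 of 9 for miR-143-3p. The shares of all genes were 0.201% and 2.82% for miR-139 (5p, then 3p), and 1.0% and 0.925% for miR-143. The members' medians there were 0.09, -0.03, -0.04 and -0.14 in the same order.

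Setting guide against passenger within a precursor, which the design allows for both, asks whether the genes were lower with the guide than with its partner strand. The labels do not say whether both arrays of a precursor used the same mock RNA. Apart from SOX5, mock levels of the members differed between the paired arrays by at most 0.09 for miR-30c and 0.05 for miR-30a. For SOX5 they differed by 1.77 for miR-30c. The guide arrays also chose 4 of the members, so a low difference in those 4 is partly given by their choice.

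For the miR-30c precursor the guide minus passenger log2 difference was -2.20 for NT5E, -1.72 for IDH1, -1.85 for SOX5 and 0.02 for CEND1. Among the reported targets it was -2.04 for PPP3CB, -1.46 for BECN1, -0.65 for GNAI2, -0.27 for PPP3CA and -0.21 for RUNX2. In PPP3CB and BECN1 most of the difference came from the passenger array, where both were above mock. The median of the 9 was -1.46, against 0.01 over all genes, and 8 of 9 were below 0, as were 48.4% of all genes. At least 2-fold lower with the guide were 5 of 9 members, and 2.32% of the 19869 genes detected on both arrays. Of those 5, NT5E, IDH1 and SOX5 were selected on the guide arrays, so nothing is read from that count or median, and the SOX5 difference lay in the mock channel. The 5 reported targets alone had a median of -0.65, all 5 were below 0, and 2 of 5 were at least 2-fold lower, PPP3CB and BECN1. The PPP3CB difference was 0.08 with its other probe.

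For the miR-30a precursor the difference was -2.94 for IDH1, -2.67 for CEND1 and -1.08 for NT5E. It was -1.38 for GNAI2 and -0.89 for PPP3CB, and for BECN1, RUNX2 and PPP3CA it was -0.14, -0.23 and -0.02. SOX5 was not detected on both arrays. The median of the 8, 3 of them selected on the guide arrays, was -0.99, 4 of 8 were at least 2-fold lower with the guide where 1.10% of 20484 genes were, and 8 of 8 were below 0 where 51.0% of all genes were. Nothing is read from that count, since IDH1, CEND1 and NT5E were 3 of the 4. The 5 reported targets alone had a median of -0.23, all 5 were below 0, and 1 of 5, GNAI2, was at least 2-fold lower. With the brightest probes, IDH1 and NT5E were past 2-fold for both precursors, GNAI2 and CEND1 for miR-30a alone, and PPP3CB and BECN1 for miR-30c alone. The other NT5E probe did not pass for either precursor, with -0.74 for miR-30c and 0.59, higher with the guide, for miR-30a. No test of the difference between precursors was possible with 1 array each.

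**Figure D4:**
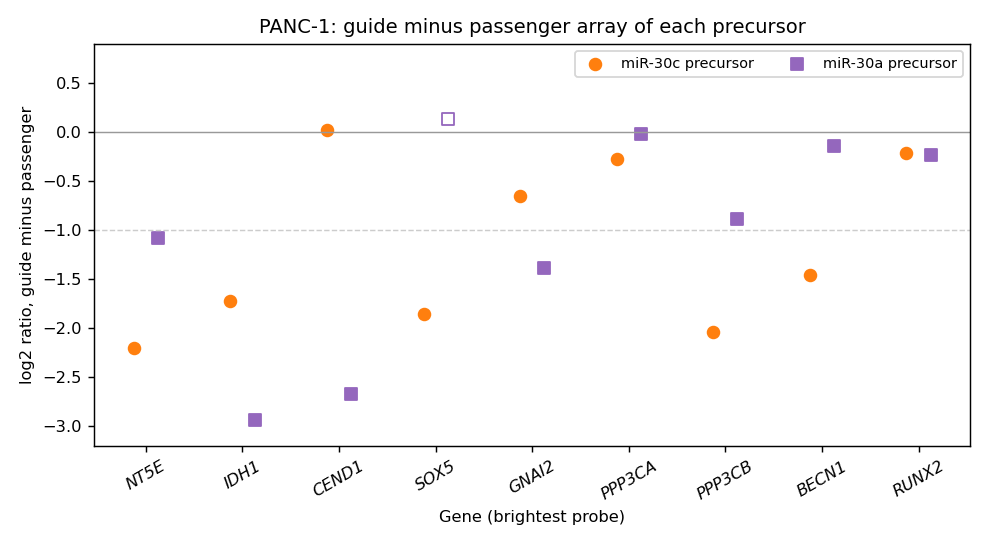
Log2 ratio of the guide array minus that of the passenger array for each gene, for the miR-30c precursor (circles) and the miR-30a precursor (squares; the open square, SOX5, was not detected on both arrays). Each gene is shown by its brightest probe, and the dashed line marks 2-fold. IDH1 and NT5E lie below it for both precursors (the other NT5E probe, not drawn, gave -0.74 and 0.59), and CEND1 lies at 0.02 for one and at -2.67 for the other.

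The 2 guide arrays gave close values for 8 of the 9 members. The differences between them ranged from 0.02 for PPP3CA to 0.40 for NT5E, while SOX5 read -1.78 and 0.03. Of a list of 42 other reported miR-30 targets, 39 were detected with the miR-30c guide and 40 with the miR-30a guide. On the first, 5 were at least 2-fold lower and 5 at least 2-fold higher, where 0.445% and 0.747% of all genes were. On the second, 6 were lower and 1 was higher, where 0.263% and 0.306% of all genes were. With the miR-30c passenger 4 of 38 were lower and 1 was higher, where 4.14% and 1.71% of all genes were. With the miR-30a passenger 0 of 40 were lower, where 1.10% of all genes were. On that array 2 were higher, and the share of all genes in that direction was not computed. The medians on the guide arrays were -0.13 and -0.12. As the scanner software gave it, 7 and 8 were lower and 6 and 2 higher there, with medians of -0.29 and -0.19. With no background correction or an offset of 1, 6 were lower on each guide array. With an offset of 1 or the scanner's ratio, 7 of 38 were lower with the miR-30c passenger and 3 of 40 with the miR-30a passenger. With median centring 2 and 3 were lower on the guide arrays. The medians were then 0.16 and 0.09, and those of all genes 0.21 and 0.15.

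Of these, TWF1, an actin monomer binding protein, read -1.72 and -1.55 with the miR-30c and miR-30a guides, and 0.24 and -0.50 with the miR-30c and miR-30a passengers. VIM, the intermediate filament protein of mesenchymal cells, read -1.63 and -1.65 with the guides and -1.35 and -0.72 with the passengers. GALNT7, an enzyme of O-linked glycosylation, read -1.60 and -1.56, and 0.78 and -0.14. VIM was thus past 2-fold lower on the miR-30c passenger array too, as was CEND1, and TWF1 and GALNT7 were past it with the guides alone. AVEN, an inhibitor of caspase activation, read -1.39 and -1.31 with the guides and -0.03 and -0.52 with the passengers. MTDH, also called metadherin, read -1.29 and -1.11 with the guides and -0.51 and -0.75 with the passengers, and its lowest value was with miR-143-3p in HCT116, at -1.41. CTGF (now CCN2), a secreted matricellular protein, read 1.90 with the miR-30c guide and 1.66 with the miR-30a guide, and 0.37 and 0.75 with the passengers, so this reported target was more than 2-fold higher, not lower.

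**Figure D5:**
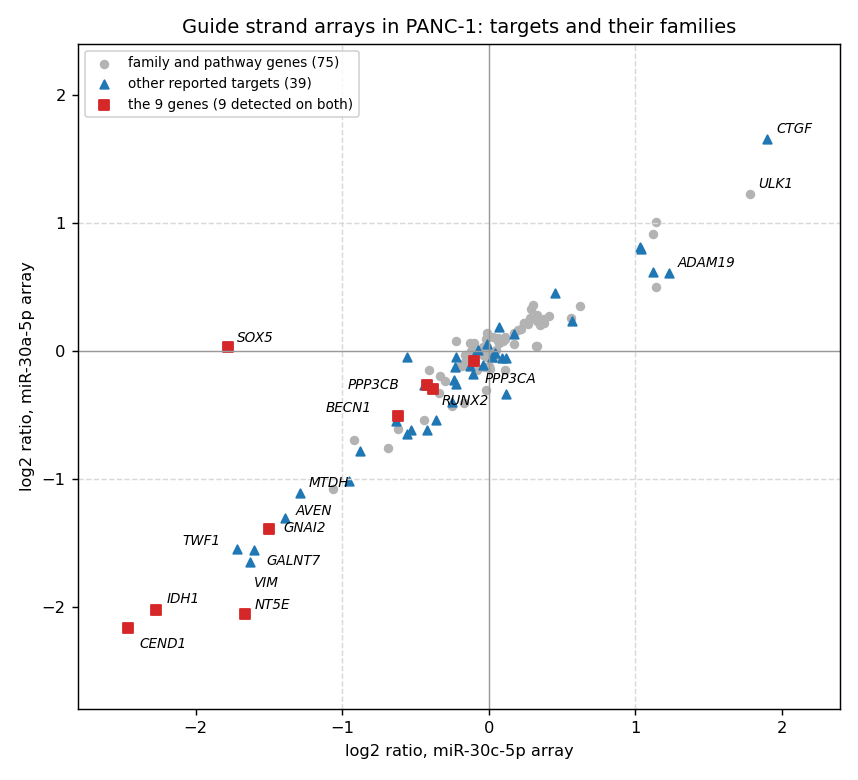
Log2 ratio on the miR-30c guide array (horizontal axis) against the miR-30a guide array (vertical axis) for the 9 genes (squares), other reported targets (triangles) and genes of the members' families and pathways (circles), with dashed lines at 2-fold. All 9 members except SOX5 lie near the diagonal, and CTGF lies at 1.90 and 1.66.

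The families and pathways of the members were read from lists of genes named by function. The members themselves were left out of these lists, so the counts below do not cover them. With the miR-30c guide 0.445% of all genes were at least 2-fold lower and 0.747% higher. With the miR-30a guide these shares were 0.263% and 0.306%. At such shares a list of this size would hold few or no such genes, so a count of 0 is not read as a result about a family. Of 12 detected genes of the calcineurin and NFAT pathway other than PPP3CA and PPP3CB, 0 passed 2-fold on any of the 4 PANC-1 arrays. PPP3CB itself read 1.62 with the miR-30c passenger. The count of 0 on the passenger arrays depended on the processing. With no background correction, an offset of 1 or the scanner's ratio, 1 of the 12 was past 2-fold lower with the miR-30a passenger. As the scanner gave it, 1 was also past it with the miR-30c passenger. With median centring 2 were past 2-fold higher with the miR-30a passenger. PPP3CC, the third catalytic isoform, read 0.06 and 0.10 on the guide arrays, and PPP3R1, the regulatory subunit, 0.02 and -0.05. With the Beclin 1 complex and autophagy core, 0 of 14 detected genes were at least 2-fold lower on the guide arrays, 3 were higher with the miR-30c guide and 1 with the miR-30a guide. ULK1, the kinase that starts autophagy, read 1.78 and 1.23. SQSTM1, an autophagy receptor, read 1.14 and 0.50, and KIAA0226 (now RUBCN), a Beclin 1 binding protein that restrains autophagy, read 1.12 and 0.91. ATG5, a part of the conjugation system, read -0.25 and -0.40.

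Of 13 detected genes of inhibitory G proteins and their partners other than GNAI2, 0 passed 2-fold on the guide arrays. GNAI1 read 0.22 and 0.17 and GNAI3 -0.12 and -0.06, so the paralogues of GNAI2 lay near mock. With no background correction, with an offset of 1, or as given by the scanner software, 1 of the 13 was past 2-fold lower with the miR-30c guide. With median centring 1 of the 13 was past 2-fold higher on that array. None of 11 detected isocitrate dehydrogenases and NADPH partners other than IDH1 passed 2-fold on the guide arrays. IDH2, the mitochondrial isoform, read 0.11 on each, IDH3A -0.33 and -0.20, IDH3B -0.01 and -0.13, and IDH3G -0.18 and -0.12. With the miR-30c passenger IDH3G read -1.59.

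Of 13 detected nucleotide ectoenzyme and adenosine receptor genes other than NT5E, 0 were at least 2-fold lower with the guides and 1 was higher. That gene was ADA, adenosine deaminase, which read 1.14 and 1.01 with the guides and -1.25 and -1.69 with the passengers. On both guide arrays ADA lay on the other side of mock from the brighter NT5E probe. NT5E was selected as low there and its other probe read 0.09 and -0.20, so nothing is read from this. In the RUNX list CBFB, the partner subunit of the RUNX proteins, read -1.06 and -1.08 with the guides and 0.48 and -0.62 with the passengers. CBFB did not pass 2-fold with median centring. RUNX1 read 0.56 and 0.26 and RUNX3 0.00 and -0.06. Of 6 detected genes of the SOX family other than SOX5, 0 passed 2-fold on the guide arrays. SOX9 read 0.24 and 0.22 there, and SOX6 was not detected. As given by the scanner software, 1 of the 6 was past 2-fold lower and 1 past 2-fold higher with the miR-30a guide. Among the CEND1 partners 0 passed.

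The mock channels give each gene's level without the miRNA, and these are compared within a probe only. CEND1 was higher in PANC-1 than in HCT116 by 3.50 (log2, means of 4 arrays each) and NT5E by 1.89. GNAI2 was higher in PANC-1 by 0.64. PPP3CA, BECN1 and IDH1 were lower in PANC-1, by differences of -1.61, -1.43 and -0.46. For CEND1, NT5E, GNAI2, PPP3CA, BECN1 and IDH1 the ranges over the 4 arrays of a line did not overlap. The share of all genes with ranges so apart was not computed, so nothing is read from this. PPP3CB and RUNX2 differed by 0.09 and -0.01. Mock levels also differed within a line. NT5E read 7.28 and 7.43 on the miR-139 arrays and 8.65 and 8.62 on the miR-143 arrays. RUNX2 read 5.97 and 5.94 against 7.08 and 6.95. The part of these mock differences in the log2 ratios was not tested. In bulk RNA, fewer cells that express a gene and less RNA per cell cannot be told apart.

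The lines were checked against their markers in the mock channels. EPCAM, CDH1 and CDX2, which mark epithelial and intestinal cells, were lower in PANC-1 than in HCT116 by differences of -4.43, -3.03 and -1.26. VIM, SPARC, ZEB1, CDH2 and AXL, which mark mesenchymal cells, were higher by 8.87, 3.40, 2.49, 1.59 and 1.36. LGALS4, listed with the epithelial markers, went the other way and was higher in PANC-1 by 0.39. It was well above background on 4 of 4 PANC-1 arrays and 0 of 4 HCT116 arrays. KRT20 was well above background on 2 of 4 HCT116 arrays, and CDH17 and FN1 were not well above background in either line.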

How the data were processed

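The authors hybridised each array in 2 colours, per the labels with Cy5 for the transfected cells and Cy3 for mock. The deposited scanner files give spot and local background intensity and, per the file headers, Feature Extraction 11.5.1.1, probe positions in hg19 and other per-spot calls (0 or 1) of signal above background, saturation and outliers. The deposited log10 ratio, processed Cy5 over processed Cy3, is background-subtracted and dye-normalised by that software. The deposited value table held the same ratios on all 62976 spots of each array (largest difference 0).

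Here mean intensity was background-corrected by normexp (offset 50, median local background), control spots were removed and loess was applied within arrays (limma 3.58.1, R 4.3.3). Outlier spots were left out and spots of a probe averaged, and the probe of highest mean signal stood for a gene. Channel levels were scaled by Aquantile after loess. No member spot was saturated or an outlier. Tables used pandas 2.3.3. The normalisation was checked on simulated data. With 1 array per miRNA no test was run. The number of arrays limits the precision, as do signals close to background and probes of a gene that differ.

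The members and lists were chosen with earlier results of these data known. Genes outside the set are named where they lay at least 1 log2 unit from 0 on either guide array, at most 6 a list by mean size, or are relatives or partners of a member, or neighbour the selection boundary. Genes named for their passenger values were chosen after these were seen. The alternatives tried were no background correction, an offset of 1, median centring, the scanner's log ratio, no detection filter, the median over probes, a 1.5-fold threshold and the set without SOX5. Transcript sequences and an hg19 annotation were not used here.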

Additional observations from a re-analysis of the deposited data

Results flagged for a closer look

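The mock level of the brightest SOX5 probe was 7.57 (log2) on the miR-30c guide array and 5.80 to 5.87 on the other 3 PANC-1 arrays. The gap to its nearest neighbour was 0.959 of the range of the 4 arrays, above Dixon's 95% critical value for 4 samples. Of the 4 mock spots it was the only 1 well above background. In all, 28 mock groups of 4 arrays were examined. For 4 independent values chance alone places about 1 in 20 groups past this value. The mock channels were not shown to be independent. Apart from SOX5, the members' mock levels differed by at most 0.15 between the arrays of a precursor. NT5E read 9.67 and 9.64 on the miR-30c arrays and 10.12 on each miR-30a array. The rate is therefore not taken to hold for these groups. Nor does it apply to SOX5, which was selected on the log2 ratio that this spot sets, so the gap is a description. What set this spot apart was not tested.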

How the results depend on the processing

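No value past 2-fold changed sign under any alternative, while the small medians with miR-139-3p (to 0.02), miR-143-5p and the miR-30a passenger did with median centring. Of 134 recomputed counts, medians and guide minus passenger differences, 88 stayed within the repeat-spot spread or within 1.5 times the count. The numbers at least 2-fold lower on the guide arrays, 5 with the miR-30c guide and 4 with the miR-30a guide, stayed between 4 and 6 and between 3 and 4. No paired analysis was possible because each miRNA has 1 array and no replicate number. Guide minus passenger is a single difference for each precursor, and the 2 precursors carry different passenger seeds and are not replicates of one another.

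Counts of members past 2-fold lower changed elsewhere. With miR-139-3p (0) the count was 1 at 1.5-fold and 2 as the scanner gave it. With miR-143-5p (1) it was 3 at 1.5-fold, 0 with median centring and with the median over probes, and 2 with no background correction, with an offset of 1 and as the scanner gave it. With the miR-30a passenger (0) it was 1 at 1.5-fold, with no background correction, with an offset of 1 and as the scanner gave it. With the miR-30c passenger (1) it was 2 at 1.5-fold.

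With median centring the median log2 ratio of the members was -0.88 with the miR-30c guide, -0.24 with the miR-30a guide, 0.65 with the miR-30a passenger, 0.32 with miR-139-5p and 0.09 with miR-143-5p, and guide minus passenger was -1.26 for miR-30c and -1.33 for miR-30a. With this centring the median of all genes was 0.21, 0.15 and 0.30 on the first 3 of these arrays. As the scanner gave it, the median was -1.45 with the miR-30c guide, -0.87 with the miR-30a guide, 0.31 with the miR-30c passenger, 0.15 with miR-139-5p and -0.20 with miR-143-3p, and guide minus passenger was -1.81 and -1.10. With an offset of 1 the medians were -0.74 with the miR-30a guide, 0.20 with the miR-30c passenger and -0.24 with miR-143-3p, and the differences -1.74 and -1.07. With no background correction they were -0.61, 0.14 and -0.26 on the same arrays, and -1.61 for miR-30c. With the median over probes the values were -0.78 with the miR-30c guide, -0.98 for the miR-30c difference and -0.40 for the miR-30a difference, and with no detection filter the last was -0.89.

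Leaving out SOX5, an alternative chosen after seeing the data, gave medians of -1.06 with the miR-30c guide, -0.95 with the miR-30a guide, -0.00 with the miR-30c passenger, -0.29 with miR-143-5p and -0.18 with miR-143-3p, and -1.06 for the miR-30c difference. Beyond what an alternative's construction shows, the cause of these moves was not tested. Of 360 recomputed ratios of single members, 196 moved by more than the repeat-spot spread, which leaves out variation between cultures. SOX5 and RUNX2 are limited by signal close to background.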

Other observations

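The genes whose log2 ratios over the 8 arrays were most like those of a member, by Pearson r and among genes detected on all arrays with an SD of at least 0.5 times that of the member, are given as a description. The 8 points share 1 slide and come from 2 cell lines. For IDH1 the nearest were PPIL3 (r = 0.979) and PEG10 (0.968). For CEND1 they were PDCD2L (0.977) and SBF1 (0.924), and for NT5E they were GALNT7 (0.913) and ALG9 (0.913). For GNAI2 they were PTP4A1 (0.985) and SBF1 (0.972), so SBF1 was near both GNAI2 and CEND1. For PPP3CA they were AASDHPPT (0.977) and PKD2 (0.949), and for PPP3CB they were TMX1 (0.970) and ATP6V1B2 (0.968). For BECN1 they were MPPE1 (0.984) and TPP2 (0.972), and for RUNX2 PCNA (0.957) and RBCK1 (0.948). SOX5 was not detected on all 8 arrays and was left out.

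The following values on the passenger arrays were chosen after they were seen. ADORA2B, an adenosine receptor, read -0.66 with the miR-30c passenger and -2.28 with the miR-30a passenger, against -0.02 and -0.31 with the guides. RUNX1 read 1.53 with the miR-30c passenger and -0.46 with the miR-30a passenger. ATG5 read 0.89 and -0.14 on the same arrays. PPP3R1 read -0.74 with the miR-30a passenger.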
